A study of Homo sapiens with 6 samples.

Results

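The genes described here encode the enzymes of glycolysis and of the pentose phosphate pathway, together with genes that sense or respond to low oxygen. They were chosen by symbol and are taken in the order of the pathway, and 38 of the 39 named genes were found among the 11363 genes of the deposited table. BPGM, the enzyme that makes bisphosphoglycerate, was not analysed here. RNA had been sequenced from NOMO-1 cells, an established line grown from a human monocytic leukaemia that carries a fusion of KMT2A and MLLT3, as 3 libraries of parental cells, labelled WT, and 3 libraries of cells with a knockout of MSLN, labelled MSLN-KO. MSLN encodes mesothelin, a surface glycoprotein. The labels do not say how the knockout was made, whether the MSLN-KO cells were 1 clone, how the cells were grown or at which oxygen level, or whether replicates were separate cultures, and the p-values therefore describe the scatter among these 6 libraries alone, which may be technical.

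Glycolysis splits glucose into pyruvate, and lactate dehydrogenase then turns pyruvate into lactate. Hexokinase, phosphofructokinase and pyruvate kinase catalyse its irreversible steps. The pentose phosphate pathway leaves at glucose 6-phosphate and yields NADPH and ribose 5-phosphate. When oxygen is low, the transcription factor HIF-1 is no longer marked for breakdown by the prolyl hydroxylases that the EGLN genes encode, and it raises transcription of many glycolytic enzymes and of genes such as BNIP3, VEGFA and ADM. Leukaemic blasts, like many dividing cells, are known for high rates of glycolysis.

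HIF-1 binds DNA at a short core whose letters include ACGTG, and promoter sequences are shown for 5 genes whose changes are described below. Promoter windows of 250 bases before a transcription start were found in the RefSeq table (GRCh38.p14) for 35 of the 38 genes, 59 windows in all. PFKFB2, VEGFA and BNIP3L had no matching entry. Capitals mark ACGTG and its reverse complement CACGT, which overlap in CACGTG. Only the part of each window outside annotated exons is printed, 5′ to 3′ on the strand of the gene. LDHA (lactate dehydrogenase A) is shown from chr11:18394313-18394387, plus strand, and PGK1 (phosphoglycerate kinase) from chrX:78103998-78104173, plus strand. BNIP3 (a mitophagy receptor) is shown from chr10:131982014-131982173, minus strand. DDIT4 (an inhibitor of mTORC1 signalling) is shown from chr10:72273674-72273919, plus strand, and EGLN3 (a prolyl hydroxylase) from chr14:33951082-33951324, minus strand.
LDHA: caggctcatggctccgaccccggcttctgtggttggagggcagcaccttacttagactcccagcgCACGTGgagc
PGK1: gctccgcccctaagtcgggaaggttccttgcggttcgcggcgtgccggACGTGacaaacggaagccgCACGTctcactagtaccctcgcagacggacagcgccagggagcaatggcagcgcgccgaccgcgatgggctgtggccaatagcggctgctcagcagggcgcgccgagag
BNIP3: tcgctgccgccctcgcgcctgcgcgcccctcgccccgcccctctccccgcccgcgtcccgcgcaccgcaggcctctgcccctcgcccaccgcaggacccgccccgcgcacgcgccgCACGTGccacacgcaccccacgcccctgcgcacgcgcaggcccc
DDIT4: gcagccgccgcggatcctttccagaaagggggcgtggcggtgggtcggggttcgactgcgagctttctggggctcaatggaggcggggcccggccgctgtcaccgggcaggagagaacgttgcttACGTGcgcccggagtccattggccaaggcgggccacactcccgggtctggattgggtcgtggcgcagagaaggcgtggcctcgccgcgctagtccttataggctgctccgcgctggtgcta
EGLN3: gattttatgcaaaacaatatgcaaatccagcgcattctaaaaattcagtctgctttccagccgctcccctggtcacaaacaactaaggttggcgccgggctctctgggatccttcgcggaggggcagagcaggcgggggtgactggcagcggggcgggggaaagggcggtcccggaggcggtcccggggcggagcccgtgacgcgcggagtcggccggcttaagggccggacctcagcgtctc

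The stretches of LDHA and BNIP3 each hold the palindrome CACGTG. The full window of LDHA, 250 bases with its exon part, holds 3 marked stretches, of which 1 lies in the printed part. PGK1 holds ACGTG and CACGT apart from each other, DDIT4 holds ACGTG once, and the stretch of EGLN3 holds no match. Windows were counted over their full length, exon bases included. Over all windows of these genes, 21 of 59 (35.6%) held ACGTG on either strand. The share was 2970 of 13086 (22.7%) for windows of all listed genes with an entry and 18.5% for all RefSeq windows. A match is only a description of the letters in the window, and genes with several start sites had several windows.

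The values are CPM, reads per gene scaled to 1000000 reads of the library, after TMM normalization by the authors. MSLN-KO was compared with WT by limma on log2(CPM + 1) over all 11363 genes, and calls were made where the adjusted p (Benjamini-Hochberg) was under 0.05. Fold differences are ratios of mean CPM, and changes on the log2(CPM + 1) scale understate those of low genes. The libraries held 23665824 to 30804446 reads in listed genes, as read from the step between CPM values. MSLN itself stood at 153.2, 122.9 and 106 CPM in WT and at 45.7, 46.9 and 45.3 CPM in MSLN-KO, so the groups lay apart in the direction of the labels. All 14 markers of monocytic leukaemia were listed. In MSLN-KO 10 were lower and 3 (CD33, CEBPA and FCGR1A) higher, against 23.3% lower and 22.4% higher among all genes. Every gene of the table reached 4.9 CPM or more in at least 3 libraries. CLEC7A, counted as lower, was under 4.9 CPM in all MSLN-KO libraries, so it was listed only through WT and had to differ. The median log2 change of the 14 markers was -0.45. Summed, they reached between 17970 and 19000 CPM across WT libraries, but only 8067 to 8530 across the MSLN-KO libraries. LYZ alone, with group means of 14540 (WT) and 6081 (MSLN-KO), made up most of this sum, which therefore says little about the other markers. Of markers of other cells, NKG7 was listed of 6 for T and NK cells (37.1 to 40.9 CPM in WT, 29.3 to 34.8 CPM in MSLN-KO). CD79B was listed of 5 for B cells (13 to 15.3 and 3.65 to 4.31 CPM). For erythroid and megakaryocytic cells ITGA2B was listed of 8 (1.39 to 2.04 and 6.72 to 7.42 CPM). KRT18 was listed of 8 for epithelial and mesothelial cells (7.97 to 9.71 and 7.07 to 9.05 CPM). By the limit of 4.9 CPM, CD79B was listed only through WT and ITGA2B only through MSLN-KO, so both had to differ. PECAM1, which monocytic cells also express, and ACTA2 were listed of 7 for stromal and endothelial cells, with a sum of 525 to 566.6 CPM in WT and 396.6 to 407.1 CPM in MSLN-KO. CD3E, HBB, EPCAM and COL1A1 were not in the table. In bulk RNA, fewer cells of a type and less RNA per cell cannot be told apart, and the part of the markers in the results below was not tested.

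Single libraries stood out within their groups. MSLN-KO replicate 3 was the lowest MSLN-KO library for 30 of the 38 genes (78.9%), against 38.3% of all listed genes, and for 10 of the 11 genes from aldolase to lactate dehydrogenase. It was also the deepest library. WT replicate 2 was the highest WT library for 7 of the 8 genes of hypoxia sensing and response, against 37.8% of all listed genes. Leaving out both libraries was an alternative added after the data were seen. The cause of the differences between replicates was not tested.

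Genes of the pathway were mostly lower in MSLN-KO. Of the 38 genes, 24 fell (63.2%), 5 rose (13.2%) and 9 were not called. Among all 11363 genes 23.3% fell, 22.4% rose and 45.7% were called in either direction. The median log2 change of the 38 genes was -0.29, against 0.01 over all genes. In 30 of the 38 genes (78.9%) the 3 MSLN-KO libraries lay entirely on one side of the 3 WT libraries, which was so for 54.7% of all genes. With WT replicate 2 and MSLN-KO replicate 3 both left out, 24 genes fell and 5 rose, with a median of -0.23. Of the 18 genes with a match, 14 were lower in MSLN-KO, 2 were higher and 2 were not called. Of the 17 genes with windows but no match, PKM among them, 9 were lower, 1 was higher and 7 were not called. A match in any window of a gene was enough for it to count. The difference between these sets was not tested. The 18 enzymes that run from hexokinase to lactate dehydrogenase made up 1.61% to 1.65% of all CPM in the WT libraries and 1.06% to 1.23% in the MSLN-KO libraries. Their summed level was 1.43-fold lower in MSLN-KO, and it was 1.33-fold lower when PKM was left out of the sum.

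**Figure D1:**
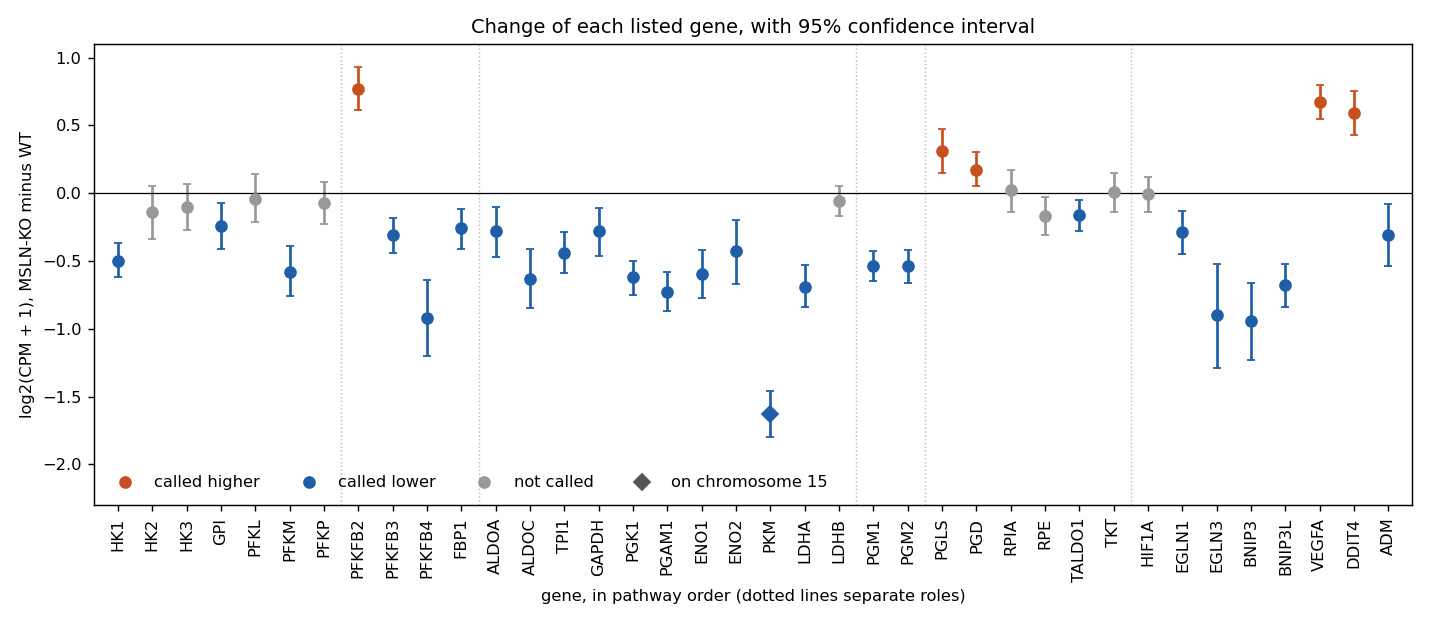
Change of each of the 38 listed genes in MSLN-KO against WT on the log2(CPM + 1) scale, in pathway order, with 95% confidence intervals from limma (n = 3 libraries per group); colours show the call. PKM has the largest fall (-1.63), while the intervals of PFKFB2, PGLS, PGD, VEGFA and DDIT4 lie wholly above 0.

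The upper steps act on hexose phosphates. Of 7 genes, 3 fell, 0 rose and 4 were not called, a share near the 45.7% called among all genes. Their median log2 change was -0.14. HK1, the widely expressed hexokinase, stood at 110.9, 109.8 and 118.4 CPM in WT and at 78.3, 84.3 and 77.1 CPM in MSLN-KO. The groups lay apart and HK1 fell by 0.50 on the log2 scale (SE 0.06, adjusted p = 1.8e-05). HK2, the hexokinase induced by hypoxia, stood at 167.6, 217.4 and 181.2 CPM in WT and 176, 182.8 and 152.6 CPM in MSLN-KO. These groups overlapped, with WT replicate 2 highest and MSLN-KO replicate 3 lowest, and the log2 difference was -0.14 (95% interval -0.34 to 0.05, adjusted p = 0.22). HK3, a hexokinase of myeloid cells, also overlapped (log2 difference -0.10, interval -0.27 to 0.07). Without WT replicate 2, whose HK3 level of 75.8 CPM was the lowest of all 6 libraries, HK3 was called lower (-0.20, adjusted p = 0.022), as it was without MSLN-KO replicate 3 in addition (-0.25, adjusted p = 0.0011).

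Phosphofructokinase, the committed step, is built from subunits of 3 genes. The muscle-type subunit gene PFKM fell from 21.25 ± 1.11 to 13.95 ± 1.17 CPM (mean ± SD, n = 3 each; log2 change -0.58, adjusted p = 0.00012). The liver-type gene PFKL stood at 207.9 to 247.8 CPM in WT and 200 to 238.7 CPM in MSLN-KO, and the platelet-type gene PFKP at 88.6 to 97.4 and 79.5 to 96.3 CPM. Both overlapped between the groups, with log2 differences of -0.04 (interval -0.21 to 0.14) and -0.07 (interval -0.23 to 0.08). Per kilobase of exon PFKM was the lowest of the 3 in WT, at 2.90 CPM per kb against 25.9 for PFKL and 19.3 for PFKP. GPI, which converts glucose 6-phosphate to fructose 6-phosphate, changed by -0.24 (SE 0.08, adjusted p = 0.025). That call was lost without WT replicate 2 (adjusted p = 0.065), without MSLN-KO replicate 3 (-0.14, adjusted p = 0.068), without both (-0.11, adjusted p = 0.077) and when limma used no variance trend (0.055).

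The genes that set the level of fructose 2,6-bisphosphate, the activator of phosphofructokinase, moved in opposite directions. PFKFB enzymes both make and break down this molecule, and FBP1 is the gluconeogenic enzyme that works against phosphofructokinase. PFKFB2 stood at 18.6, 19.7 and 17.5 CPM in WT and at 32.7, 31.0 and 33.6 CPM in MSLN-KO. All MSLN-KO libraries lay above all WT libraries, and PFKFB2 rose 1.74-fold (log2 change 0.77, SE 0.07, adjusted p = 2.6e-06). PFKFB4, a hypoxia-induced member, stood at 63.6, 67.8 and 66.6 CPM in WT and at 41.2, 38.5 and 25.5 CPM in MSLN-KO. Here all MSLN-KO libraries lay below all WT libraries, with replicate 3 lowest, and the fall was 1.88-fold (log2 change -0.92, SE 0.13, adjusted p = 9e-05).

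PFKFB3, the member known for its high kinase activity, fell from 104.6 ± 3.86 to 84.33 ± 4.79 CPM (adjusted p = 0.001), and FBP1 fell from 61.41 ± 2.57 to 51.05 ± 3.66 CPM (adjusted p = 0.0059). Of the summed CPM per kb of the 3 PFKFB genes, PFKFB2 held 6.34%, 6.42% and 5.66% in WT and 13.6%, 12.7% and 16% in MSLN-KO. PFKFB4 held 35.9% to 36.9% in WT and 20.3% to 28.6% in MSLN-KO. PFKFB3 remained the most abundant of the 3 per kb of exon, with 56.7% to 58.5% in WT and 57.9% to 63.6% in MSLN-KO.

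**Figure D2:**
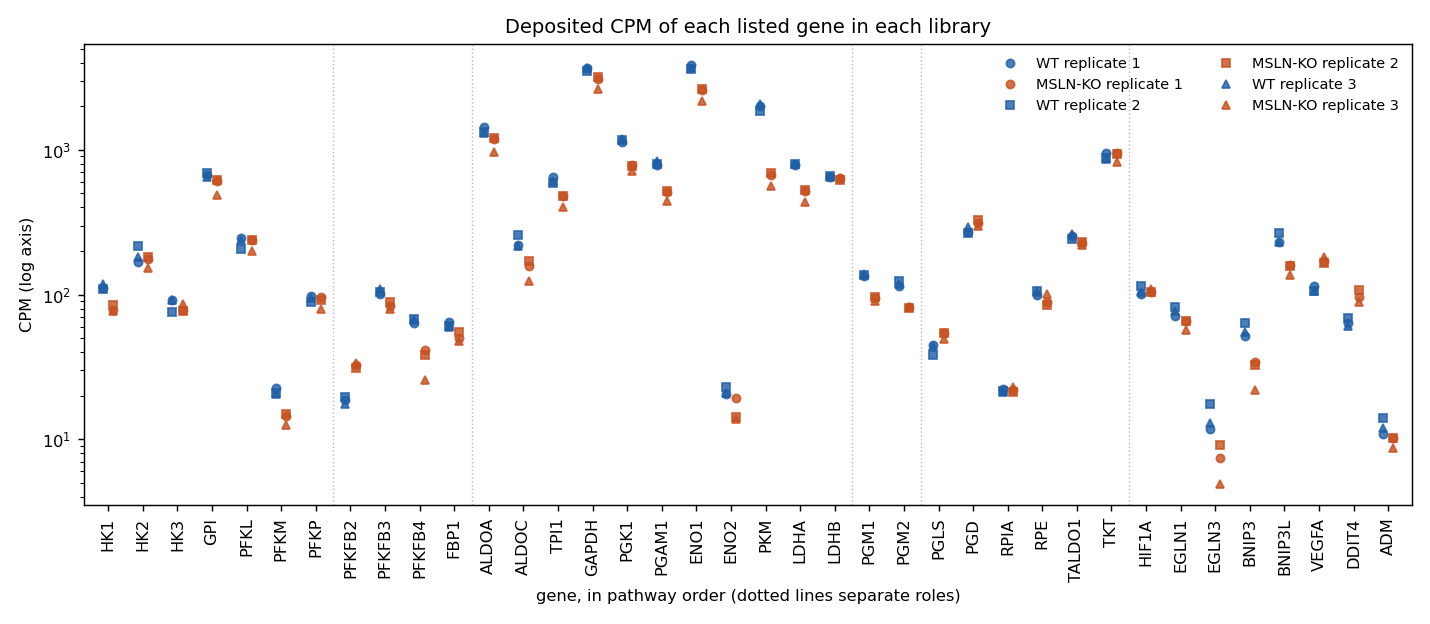
Deposited CPM (log axis) of the 38 genes in each of the 6 libraries, in pathway order; marker shapes give the replicate and colours the group. The WT and MSLN-KO points are apart for 30 genes, and MSLN-KO replicate 3 is the lowest of its group for 30 genes.

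From aldolase to lactate dehydrogenase, 10 of 11 genes fell and 0 rose, against 23.3% and 22.4% of all genes. Their median log2 change was -0.60. The summed level of these 11 genes was 14616 to 15219 CPM in WT and 9142 to 10800 CPM in MSLN-KO. In all 11 the MSLN-KO libraries lay below the WT libraries, LDHB included, which was not called. ALDOA, the main aldolase, stood at 1299 to 1440 CPM in WT and 961.6 to 1209 CPM in MSLN-KO, and GAPDH, which makes NADH, at 3510 to 3657 and 2650 to 3178 CPM. Both changed by -0.28 on the log2 scale (adjusted p = 0.015 and 0.012), and the call of ALDOA was lost without WT replicate 1 (adjusted p = 0.054). Without MSLN-KO replicate 3 ALDOA changed by -0.18 (adjusted p = 0.043). TPI1, which interconverts the triose phosphates, changed by -0.44 (adjusted p = 0.00023).

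Below GAPDH, PGK1, the first enzyme of the pathway to yield ATP, stood at 1126, 1167 and 1197 CPM in WT and at 780.2, 767.7 and 715.6 CPM in MSLN-KO. The groups were far apart relative to their spread, and PGK1 retained 64.8% of its WT level (log2 change -0.62, SE 0.06, adjusted p = 2.4e-06). PGAM1, the phosphoglycerate mutase, stood at 790.1, 803.1 and 841.9 CPM in WT and 514.2, 517.2 and 441.8 CPM in MSLN-KO, which is 60.5% of the WT mean (adjusted p = 2.1e-06). ENO1, the main enolase, fell from 3720 ± 133 to 2468 ± 240 CPM (adjusted p = 6.6e-05). The neuronal-type isozymes were lower too, with ENO2 at 21.44 ± 1.31 and 15.76 ± 2.94 CPM (adjusted p = 0.006) and ALDOC at 232.2 ± 23.4 and 150.8 ± 24.2 CPM (log2 change -0.63, adjusted p = 0.00028). Without WT replicate 2 and MSLN-KO replicate 3, ALDOC changed by -0.41 (adjusted p = 1.7e-05).

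PKM, the pyruvate kinase gene at the last step of glycolysis, had the largest fall of the 38 genes. It lies on GRCh38 chromosome 15 (72199029 to 72231822, minus strand). It stood at 2012, 1865 and 2075 CPM in WT and at 673.2, 688.1 and 563.7 CPM in MSLN-KO, 32.3% of the WT mean (log2 change -1.63, 95% interval -1.80 to -1.46, adjusted p = 3.9e-09). Genes of chromosome 15 were lower in general: of the 370 others listed, 307 fell and 13 rose, with a median log2 change of -0.56. PKM lay outside most of that distribution, and 4 of the 370 had a lower value. Its 7 listed neighbours within 1 Mb had a median of -0.46, of which 5 were called lower and none, 0 of 7, fell as far as PKM. With the median of the other chromosome 15 genes subtracted, PKM still fell by 1.07 on the log2 scale (adjusted p = 3.1e-07). That p covers the scatter among libraries and not the spread among chromosome 15 genes, so it does not measure how unusual PKM was among them. Of the 37 listed genes on other chromosomes, 23 fell and 5 rose, with a median of -0.28. Gene-level values do not separate the PKM1 and PKM2 transcripts.

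**Figure D3:**
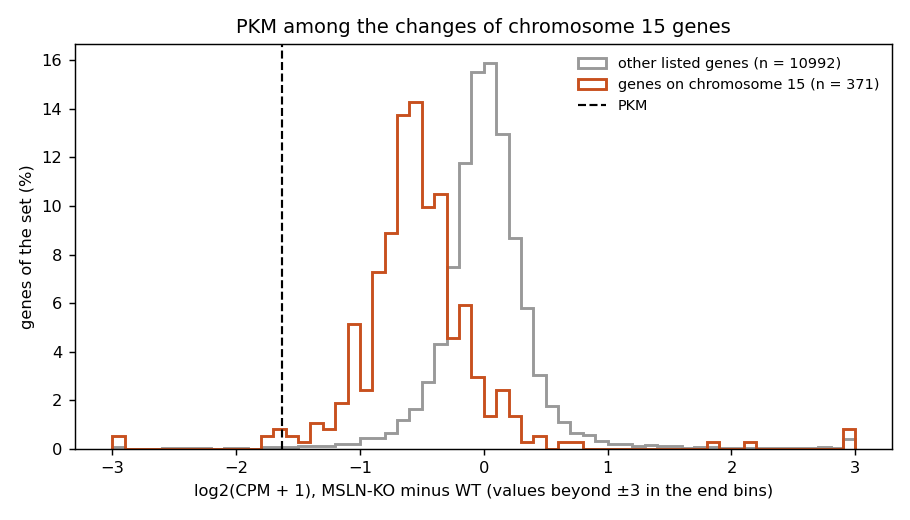
Distribution of log2 changes in MSLN-KO against WT for the listed genes of chromosome 15 (370 and PKM) and for the other 10992 listed genes, each as a percent of its set; the dashed line marks PKM. The chromosome 15 genes sit to the left of the others, and PKM at -1.63 sits near the lower end of both.

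Of the subunit genes of lactate dehydrogenase, LDHA fell and LDHB was not called. LDHA, whose subunit is common in glycolytic cells, stood at 788.5, 800.1 and 793.2 CPM in WT and at 522, 526 and 435.5 CPM in MSLN-KO. The WT libraries were nearly equal, all MSLN-KO libraries lay below them, and LDHA changed by -0.69 on the log2 scale (SE 0.07, adjusted p = 5.6e-06). LDHB, whose subunit predominates in heart, stood at 652.8, 664.9 and 654.3 CPM in WT and at 636.3, 620.9 and 637.9 CPM in MSLN-KO. The groups did not overlap but lay close, with a log2 difference of -0.06 (interval -0.17 to 0.05, adjusted p = 0.38).

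Per kb of exon, LDHA made up 36.6% to 36.8% of the sum of LDHA and LDHB in WT and 24.7% to 28.9% in MSLN-KO, a difference of -9.42 percentage points (exact two-sided permutation p = 0.1, the smallest that 3 against 3 libraries allow). The share differed by -3.41 points for ALDOC within the aldolases and by 0.0744 points for ENO2 within the enolases. The ENO2 shares overlapped between the groups and the ALDOC shares did not. HK1 held 22.9% to 24.5% of the hexokinase sum in WT and 19.1% to 20% in MSLN-KO. Shares were compared in 8 families, and none could pass the threshold in this design.

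**Figure D4:**
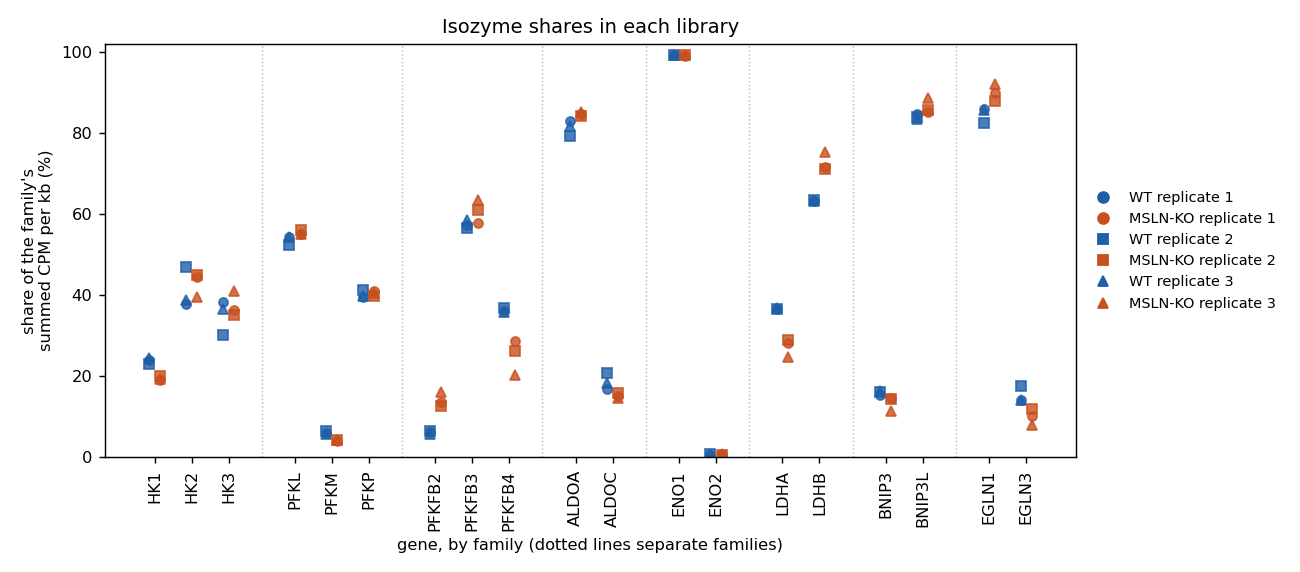
Share of each isozyme in the summed CPM per kb of exon of its family (%), in each of the 6 libraries, for 8 families; marker shapes give the replicate and colours the group. The shares of PFKFB4, LDHA and EGLN3 are lower in all 3 MSLN-KO libraries than in any WT library, and that of PFKFB2 is higher.

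PGM1 and PGM2, phosphoglucomutases that link glycolysis with glycogen and with pentose breakdown, both fell. PGM1 went from 136.6 ± 2 to 93.63 ± 2.96 CPM and PGM2 from 119 ± 5.2 to 81.51 ± 0.797 CPM. Each retained 68.5% of its WT mean, and both changed by -0.54 on the log2 scale (adjusted p = 3.1e-06 and 4.6e-06).

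Of the 6 pentose phosphate genes, 2 rose, 1 fell and 3 were not called, a share near the 45.7% called among all genes, with a median log2 change of 0.01. Their summed level was 1556 to 1638 CPM in WT and 1519 to 1658 CPM in MSLN-KO, with the groups overlapping. The difference between this pathway and glycolysis was not tested. The enzymes of the oxidative branch were those that rose. PGLS, the 6-phosphogluconolactonase, stood at 44.7, 38.2 and 44.1 CPM in WT and at 54.7, 54.4 and 48.98 CPM in MSLN-KO, with the groups apart (log2 change 0.31, SE 0.07, adjusted p = 0.0044). PGD, the 6-phosphogluconate dehydrogenase that yields NADPH, stood at 270.9, 267.2 and 291.9 CPM in WT and at 311.2, 328.2 and 297.8 CPM in MSLN-KO. MSLN-KO replicate 3 lay just above WT replicate 3, and the log2 change was 0.17 (SE 0.06, adjusted p = 0.025). The call of PGD was lost without WT replicate 1 (adjusted p = 0.072), WT replicate 2 (0.06), MSLN-KO replicate 1 (0.076) or MSLN-KO replicate 2 (0.12), and when limma used no variance trend (0.06).

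In the non-oxidative branch, TKT, the transketolase, stood at 867.8 to 945.5 CPM in WT and 828.3 to 946.5 CPM in MSLN-KO, with a log2 difference of 0.01 (interval -0.14 to 0.15). RPIA, the ribose phosphate isomerase, was close as well (0.02, interval -0.14 to 0.17). RPE, the ribulose phosphate epimerase, had a log2 difference of -0.17 (adjusted p = 0.053) and was called lower without MSLN-KO replicate 3 (-0.24, adjusted p = 0.0054) and without WT replicate 2 in addition (-0.22, adjusted p = 0.0027). TALDO1, the transaldolase, changed by -0.16 (adjusted p = 0.023), with WT libraries between 240.5 and 262 CPM and MSLN-KO libraries between 220 and 229.6 CPM. Its call was lost without WT replicate 1 (adjusted p = 0.061), WT replicate 3 (0.095), MSLN-KO replicate 1 (0.072) or MSLN-KO replicate 3 (0.05), after each column was rescaled to the same total (0.061) and when limma used no variance trend (0.056).

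Among genes of hypoxia, HIF1A itself, which encodes the regulated subunit of HIF-1, stood at 100.2, 115 and 104.7 CPM in WT and at 104.6, 103.8 and 109.2 CPM in MSLN-KO. The groups overlapped, and the log2 difference was -0.01 (95% interval -0.14 to 0.12, adjusted p = 0.93), with a sign that turned after each column was rescaled to the same total (0.02). HIF1A is controlled mainly through its protein, which was not measured. Of the 8 genes of hypoxia sensing and response, 5 fell, 2 rose and HIF1A was not called, with a median log2 change of -0.30. Among all genes 23.3% fell and 22.4% rose.

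The prolyl hydroxylase genes EGLN1 and EGLN3 fell. EGLN3, itself induced by hypoxia, stood at 11.8, 17.5 and 12.9 CPM in WT and at 7.46, 9.15 and 4.90 CPM in MSLN-KO. WT replicate 2 was the highest library and MSLN-KO replicate 3 the lowest, the groups lay apart, and EGLN3 retained 50.9% of its WT mean (log2 change -0.90, SE 0.18, adjusted p = 0.0012). EGLN1, the main oxygen sensor, fell from 76.73 ± 5.2 to 62.72 ± 5.25 CPM (log2 change -0.29, adjusted p = 0.0061). Without WT replicate 2 and MSLN-KO replicate 3, EGLN3 changed by -0.53 (adjusted p = 0.0021) and EGLN1 by -0.17 (adjusted p = 0.021). Of the sum of both per kb of exon, EGLN3 held 14.1% to 17.5% in WT and 7.87% to 12% in MSLN-KO, a difference of -5.25 percentage points. With the longest transcript as length the mean shares were 31.2% and 21.8%, a difference of -9.34 points.

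The mitophagy receptor genes BNIP3 and BNIP3L fell. BNIP3 stood at 51.8, 63.3 and 55.5 CPM in WT and at 34, 32.6 and 22 CPM in MSLN-KO. The spread within each group was smaller than the gap between them, and BNIP3 changed by -0.94 on the log2 scale (SE 0.13, adjusted p = 7.8e-05). Its relative BNIP3L fell from 242.6 ± 20.7 to 151.01 ± 11.8 CPM (adjusted p = 7.2e-06). ADM, which encodes the vasodilator peptide adrenomedullin, was low at 10.8 to 14.1 CPM in WT and 8.70 to 10.2 CPM in MSLN-KO (log2 difference -0.31, adjusted p = 0.031). The call of ADM was lost without WT replicate 2 (adjusted p = 0.12), WT replicate 3 (0.067) or MSLN-KO replicate 3 (0.1), and without WT replicate 2 and MSLN-KO replicate 3 together (-0.14, adjusted p = 0.26).

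VEGFA and DDIT4 went the other way. VEGFA, the vascular endothelial growth factor, stood at 113.7, 105.2 and 105.7 CPM in WT and at 171.9, 165.7 and 182.3 CPM in MSLN-KO. The groups lay far apart, and the rise was 1.6-fold (log2 change 0.67, SE 0.06, adjusted p = 9.1e-07). DDIT4 stood at 63.7, 69 and 60.5 CPM in WT and at 96.8, 107.3 and 88.3 CPM in MSLN-KO, again with no overlap (1.51-fold, log2 change 0.59, SE 0.07, adjusted p = 3.6e-05). Both are also known to respond to ATF4, the transcription factor of amino acid and folding stress. The letters TGATGNAA, a short form of its binding site, were searched on both strands. They were in 2 of the 59 windows of these genes (3.39%), both of HK1, and in 1.56% of windows of listed genes. The window of DDIT4 did not hold them, and VEGFA had no window. The part of ATF4 in these changes was not tested.

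**Figure D5:**
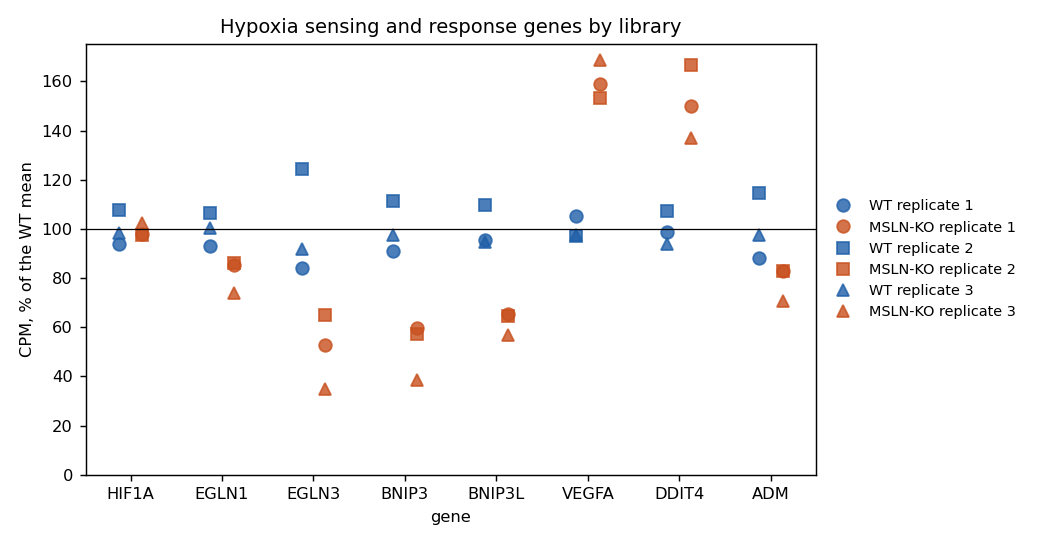
CPM of the 8 genes of hypoxia sensing and response in each library, as a percent of the WT mean of that gene (line at 100%); marker shapes give the replicate and colours the group. WT replicate 2 is the highest WT library for 7 of 8 genes, MSLN-KO replicate 3 is the lowest MSLN-KO library for 6 of 8, and VEGFA and DDIT4 lie above 100% in all 3 MSLN-KO libraries.

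Other genes of the same pathways came from a list of 71 genes that holds glucose and lactate transporters, glycogen enzymes, minor isozymes, HIF regulators and HIF targets. Of these 52 were in the table, of which 22 fell, 10 rose and 20 were not called, against 23.3% that fell and 22.4% that rose among all genes. Their median log2 change was -0.21. HMOX1, the haem oxygenase, had a mean of 6.261 ± 1.16 CPM over the WT libraries and 1.47 ± 0.0995 CPM over those of MSLN-KO, and its limit is given with STC2 below. Of the other falls named by the rule, the largest were of ZNF395, a hypoxia-induced transcription factor (133.2 ± 5.08 to 67.02 ± 11.5 CPM, 1.99-fold), and GBE1, the glycogen branching enzyme (265 ± 32.7 to 137.1 ± 13.9 CPM, 1.93-fold). NDRG1, a hypoxia and stress gene, fell 1.58-fold (log2 change -0.68, and -0.38 without WT replicate 2 and MSLN-KO replicate 3) and GLO1, the glyoxalase that clears methylglyoxal, 1.53-fold. ADPGK, an ADP-dependent glucokinase on chromosome 15, fell 1.6-fold, and this call was lost with the median of the other chromosome 15 genes subtracted (log2 change -0.10, adjusted p = 0.12). Over the 5 genes other than HMOX1 the adjusted p ran from 4.7e-07 for ADPGK to 0.0013 for NDRG1.

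STC2, a secreted glycoprotein gene, had a mean of 0.5763 ± 0.142 CPM over the WT libraries and 6.468 ± 0.251 CPM over those of MSLN-KO. Every gene of the table reached 4.9 CPM or more in at least 3 libraries, so STC2 was listed only through its MSLN-KO libraries and HMOX1 only through its WT libraries. Such genes had to differ, so no test is given for these, although the counts above include both. The log2 differences of STC2 and HMOX1 were 1.04 and -0.79 with a pseudocount of 5 CPM, against 2.25 and -1.54. TKTL1, a transketolase-like gene, rose from 7.462 ± 0.861 to 20.81 ± 1.82 CPM (2.79-fold, adjusted p = 2.2e-07) while TKT was not called. TXNIP, an inhibitor of glucose uptake and of thioredoxin, stood at 568.4, 604.9 and 435.5 CPM in WT and at 996.6, 988.4 and 1079 CPM in MSLN-KO (1.90-fold, adjusted p = 6.5e-06). EPAS1, which encodes HIF-2 alpha, rose 1.74-fold from 6.99 ± 0.42 CPM, and MYC, a transcription factor that also drives glycolytic genes, rose 1.39-fold from 178.8 ± 20.3 CPM (adjusted p = 4e-05 and 0.00023). PYGB, the brain-type glycogen phosphorylase, rose 1.66-fold. The glucose transporter genes, named after their values were seen, gave 55.49 ± 7.03 and 45.96 ± 5.8 CPM for SLC2A1 (adjusted p = 0.043) and 83.21 ± 17.3 and 70.91 ± 13.3 CPM for SLC2A3 (adjusted p = 0.21), in WT and MSLN-KO. The groups overlapped for both. SLC2A6, of the same family, fell from 8.918 ± 1.27 to 6.759 ± 0.513 CPM with the groups apart (adjusted p = 0.022).

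Some counts are uncertain because other loci share sequence with these genes. GENCODE 29 lists 61 processed pseudogenes named after GAPDH, 39 after BNIP3, 13 after PGAM1 and 6 after LDHA. Of the exon bases of ALDOA 42.3%, and of LDHB 33.4%, also belong to another gene on the same strand. Of those of DDIT4, 41.2% overlap DDIT4-AS1 on the opposite strand. How the authors counted such reads is not given in the sources used here.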

How the data were processed

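Total RNA of 6 NOMO-1 samples was depleted of ribosomal RNA and made into strand-specific libraries, per the labels' protocols. STAR, featureCounts, edgeR and the build GRCh38/hg38 are named in the submitters' processing notes. Versions, annotation release, strand setting, low-value filter and handling of reads that fit several loci were not given in the sources used here. CPM values were deposited by the authors after TMM normalization, 1 column per library. Column totals were 967718 to 1009572, and the smallest value of a listed gene in its third-highest library was 4.9 CPM. In each column 100% of values were whole multiples of 1 step (tolerance 0.01 of it), which gave the depth. No count test was run.

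Symbols matched 11354 of 11363 identifiers, and GENCODE 29 on GRCh38 gave 1-based positions and merged exon lengths for 11314. MSLN-KO was compared with WT by limma 3.58.1 in R 4.3.3 (lmFit, eBayes with trend) on log2(CPM + 1), two-sided, without covariates or a further filter, with p-values adjusted over all genes. The fit was tested on simulated data. Replicates of 1 group differed beyond counting error (chi-square over degrees of freedom 2.71 to 14.8). Isozyme shares used exact permutation tests.

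The genes and lists were chosen with earlier results of these data known. Every listed member is reported, and of the related genes the 6 largest called falls and rises whose groups did not overlap. Alternatives changed the pseudocount, filter, scaling, trend, replicate block, exon length and chromosome 15, and left out each library. Most other related genes are given only in counts, and some items are not reported here.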

Additional observations from a re-analysis of the deposited data

How the results depend on the processing

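Of the 38 genes, 25 kept their direction and their side of the threshold under every alternative that could be run for them. The counts of genes that fell ranged from 22 to 24 and of those that rose from 4 to 5, and the median log2 change from -0.34 to -0.23. PKM could not be tested without chromosome 15 genes. With the replicate block, 24 fell, 5 rose and 4946 genes were called in all, and no call of the 38 changed. Same-numbered libraries had deviations from their group means that correlated across genes at 0.192, -0.169 and -0.0917. Deviations within a group are tied to each other, so these correlations cannot settle whether the samples were paired. Not every sample correlated best with its own number. The direction turned for genes that were never called. Without WT replicate 2 and MSLN-KO replicate 3 together, HK2 was at 0.04, RPIA at -0.02 and HIF1A at 0.02, and HIF1A was at 0.02 with rescaling to column totals. Leaving out 1 library in turn gave PFKL -0.11 to 0.05, PFKP -0.13 to 0.01, RPIA -0.01 to 0.05, TKT -0.03 to 0.07 and HIF1A -0.05 to 0.05. With the longest transcript as length, the share of EGLN3 differed by -9.34 points in place of -5.25. The table holds no genes below its low-value limit, so weakly expressed isozymes were not analysed here.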

Other observations

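Glycogen enzymes within the list of related genes, picked out after their values were seen, moved in both directions. GYS1, the glycogen synthase, stood at 63.6, 64.1 and 63.6 CPM in WT and at 45.9, 45.8 and 37.9 CPM in MSLN-KO, with the groups apart (log2 change -0.56, limma adjusted p = 5.4e-05). GBE1, which branches the chain, fell 1.93-fold as given above. On the side of breakdown, PYGL, the liver-type phosphorylase, changed by -0.16 (adjusted p = 0.026), while PYGB, the brain-type phosphorylase, rose from 32.05 ± 2.17 to 53.08 ± 3.39 CPM (adjusted p = 4.7e-06). UGP2, which makes UDP-glucose, had a log2 difference of 0.05 (95% interval -0.08 to 0.18).

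Several HIF targets of that list, also named after their values were seen, were highest in WT replicate 2. P4HA1, a collagen prolyl hydroxylase, stood at 250.9, 336.6 and 252.3 CPM in WT and at 224.1, 209.3 and 188.3 CPM in MSLN-KO. ERO1A, an oxidase of the endoplasmic reticulum, stood at 183.4, 228.2 and 186.3 CPM in WT and at 136.3, 128 and 125.3 CPM in MSLN-KO. In both genes MSLN-KO replicate 3 was the lowest library. MXI1, PDK1 and KDM3A of that list were also highest in WT replicate 2, but their groups overlapped and they were not called. Their log2 differences were 0.15, -0.06 and -0.16 (limma adjusted p = 0.21, 0.54 and 0.23). WT replicate 2 was the highest WT library for 26 of the 52 listed related genes, and MSLN-KO replicate 3 the lowest MSLN-KO library for 33.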
